A study of Homo sapiens with 12 samples.

Results

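The genes described here are 10 small nucleolar RNA (snoRNA) host genes, GAS5, ZFAS1, SNHG1, SNHG5, SNHG6, SNHG7, SNHG8, SNHG12, SNHG15 and SNHG29. They were taken by name from the 20117 genes of the deposited table, and all 10 were found and passed the filter on low values in every comparison. Bulk RNA was sequenced from cell lines with and without native low-density lipoprotein (LDL) isolated from donors with cardiovascular disease, in a series whose title names the mechanics of macrophages and endothelial cells. The labels call the extracted molecule total RNA and do not say how messenger RNA was selected.

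THP-1 LDL denotes the monocytic leukaemia line THP-1, matured with the phorbol ester PMA and held for 24 h in RPMI-1640 without serum or 2-mercaptoethanol but with 100 µg/mL LDL. THP-1 control received PMA and the same medium without LDL. THP-1 had been grown with 2-mercaptoethanol before this step, and its cell type label reads monocytes while its titles name macrophages. EA.hy926 LDL denotes the line EA.hy926, a hybrid of umbilical vein endothelial cells with the lung carcinoma line A549, held for 24 h in serum-free DMEM with 100 µg/mL LDL, and EA.hy926 control received that medium without LDL. Each of the 4 groups had 3 libraries, labelled only as biological replicates, so the p-values below reflect only how far these libraries differ from each other, which may be technical. Line, medium and PMA, which only the THP-1 titles name, cannot be told apart between THP-1 and EA.hy926.

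Depth ran from 4324792 to 11002158 reads per library, recovered from the deposited normalised counts. Summed levels of 10 macrophage markers were 28662 to 31849 normalised counts in THP-1 LDL and 25184 to 27299 in THP-1 control, against 42.0 to 66.2 in EA.hy926 LDL and 30.1 to 72.4 in EA.hy926 control, although CD68 was listed at 0 in both THP-1 groups. The 10 endothelial markers summed to 3265 to 3707 in THP-1 LDL and 3359 to 3727 in THP-1 control, against 20909 to 23262 in EA.hy926 LDL and 22393 to 23174 in EA.hy926 control, and CDH5, KDR, TEK, ERG and EMCN were listed at 0 in THP-1. EA.hy926 also carried KRT7 and KRT18, keratins of its epithelial parent, with KRT19, ELF3, AKR1C1 and ALDH3A1 listed at 0. In bulk samples, fewer cells of a type and less RNA per cell cannot be told apart.

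As background, a snoRNA host gene is transcribed by RNA polymerase II and spliced, and snoRNAs are released from its introns. Box C/D snoRNAs guide 2′-O-methylation and box H/ACA snoRNAs guide pseudouridylation of ribosomal RNA, so these genes feed ribosome assembly. Many host transcripts begin with a run of pyrimidines like that of ribosomal protein mRNAs, the 5′ terminal oligopyrimidine (TOP) tract, and several spliced host RNAs are known substrates of nonsense-mediated decay, which degrades RNAs with early stop codons during translation. GAS5, ZFAS1, SNHG1, SNHG5, SNHG6 and SNHG29 host box C/D snoRNAs, SNHG7, SNHG8 and SNHG15 host box H/ACA snoRNAs, and SNHG12 hosts both kinds.

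The sequence at the annotated start is shown because the TOP tract is the feature that links host genes to ribosomal protein genes. RefSeq promoter windows (GRCh38.p14) were matched for 8 of the 10 genes, with SNHG6 and SNHG15 not in that table. Each line below gives 30 bases before and 30 bases from the start site, 5′ to 3′ on the gene's strand, with capitals marking an unbroken run of C and T, longer than 1 base, that begins with C at the start site.
ZFAS1: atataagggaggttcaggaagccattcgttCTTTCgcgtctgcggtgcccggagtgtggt
SNHG1: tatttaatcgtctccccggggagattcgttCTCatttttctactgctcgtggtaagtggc
SNHG5: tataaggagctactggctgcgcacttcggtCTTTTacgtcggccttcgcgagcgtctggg
SNHG7: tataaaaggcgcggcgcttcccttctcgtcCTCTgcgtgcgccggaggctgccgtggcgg
SNHG8: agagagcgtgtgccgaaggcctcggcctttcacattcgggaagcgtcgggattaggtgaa
SNHG12: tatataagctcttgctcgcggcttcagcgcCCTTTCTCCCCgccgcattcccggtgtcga
SNHG29: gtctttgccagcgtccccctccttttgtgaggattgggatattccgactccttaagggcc
The windows lie at chr20:49278612-49278671 (plus strand) for ZFAS1, chr11:62855856-62855915 (minus) for SNHG1, chr6:85678704-85678763 (minus) for SNHG5 and chr9:136728155-136728214 (minus) for SNHG7. Those of SNHG8, SNHG12 and SNHG29 lie at chr4:118278732-118278791 (plus), chr1:28581844-28581903 (minus) and chr17:16438957-16439016 (plus). A C at the start site followed by at least 4 further C or T, read on the gene's strand only, was present in 3 of the 8 windows, those of ZFAS1, SNHG5 and SNHG12, and in 4.07% of all 35116 RefSeq windows. RefSeq places the GAS5 start upstream of the GENCODE 29 gene, and its window has no such run. The commonest GENCODE 29 start of GAS5, shared by 6 of its 29 transcripts at chr1:173867960-173867989 (GRCh38, minus strand), begins with 6 pyrimidines.
GAS5: CTTTTCgaggtaggagtcgactcctgtgag
The commonest GENCODE 29 start coincides with the RefSeq start for SNHG5 and SNHG7 and lies elsewhere for the other matched genes. These matches describe annotated windows, and which start the reads came from was not tested.

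In THP-1, LDL was followed by higher levels of 6 host genes and lower levels of 2, while SNHG5 and SNHG8 did not pass the test. SNHG15 moved most, to 2.59-fold of control, GAS5, ZFAS1 and SNHG1 stood at 1.64- to 1.66-fold, and SNHG29 stood at 0.559-fold. Of the 10 genes, 8 were called at an adjusted p under 0.05, where 64.5% of the 16167 genes tested were called. The 6 called higher compare with 35.5% of all genes, and the 2 called lower with 29.0%. The groups did not overlap in 8 of the 10, as in 68.9% of all genes tested. The members' median log2 difference was 0.36 and that of all genes tested was 0.08. Differences are on the scale of log2(normalised count + 1), tested with limma and adjusted over all genes tested, each line fitted alone.

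**Figure D1:**
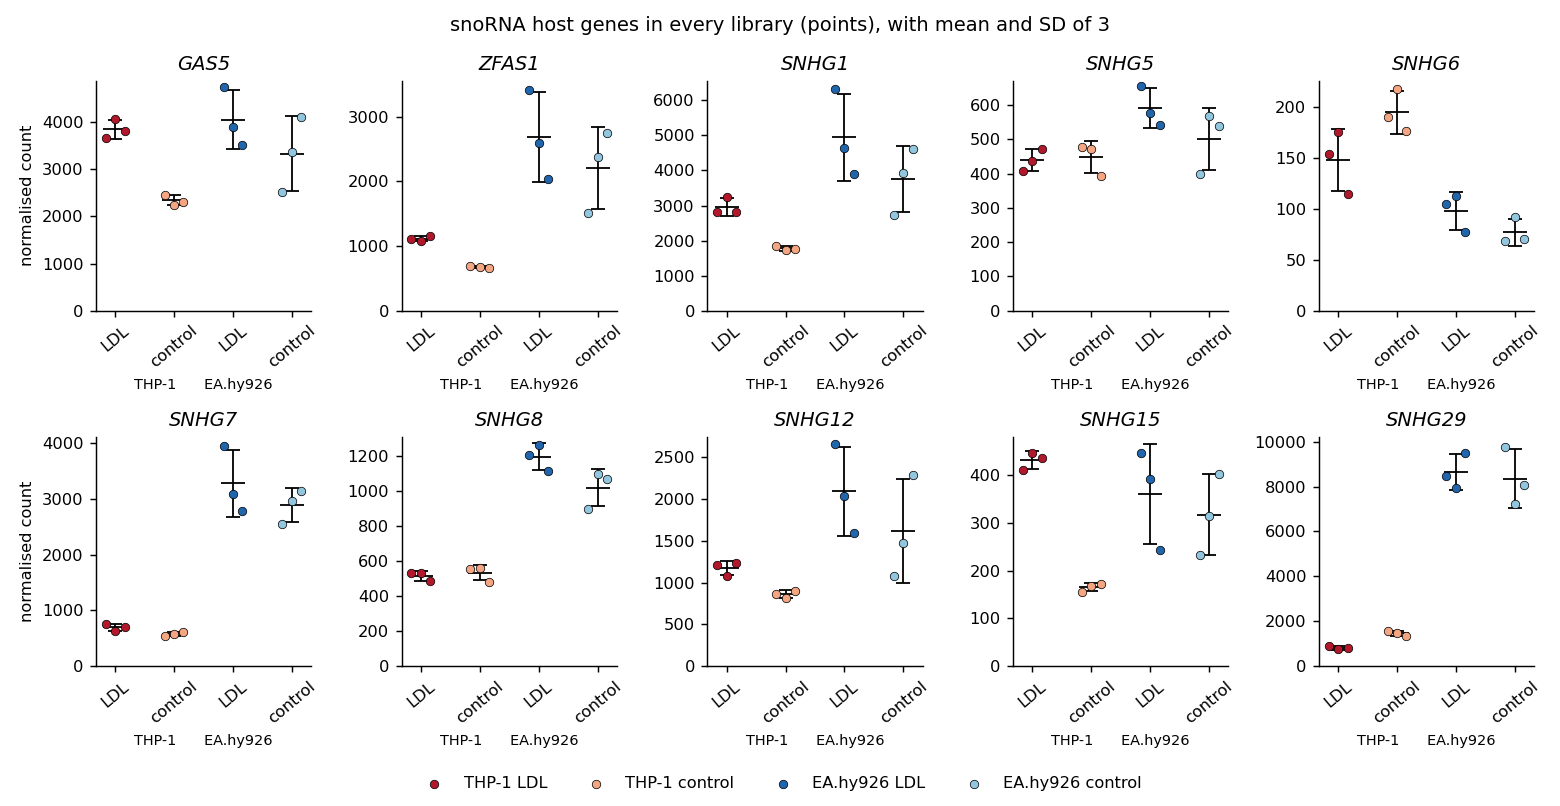
Normalised counts (y axis, from 0) of the 10 host genes in each library, with points for libraries and a bar with whiskers for the mean and SD of 3. The THP-1 LDL points lie apart from the THP-1 control points in 8 panels, with SNHG5 and SNHG8 overlapping, while the EA.hy926 points overlap in every panel but that of SNHG8.

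Among the box C/D hosts, GAS5, first isolated as a transcript that accumulates in growth-arrested mouse cells, measured 3667, 4072 and 3813 normalised counts in THP-1 LDL, against 2460.4, 2252 and 2317 in THP-1 control. The lowest LDL library was above the highest control library, with a log2 difference of 0.72 ± 0.0635 (SE; limma adjusted p = 5.53e-07). ZFAS1, transcribed head to head with the zinc finger gene ZNFX1, measured 1103, 1077 and 1159 in THP-1 LDL, against 692, 666 and 654 in THP-1 control. Its groups did not overlap either, and the log2 difference was 0.73 ± 0.0652 (limma adjusted p = 5.95e-07). SNHG1 measured 2806, 3239 and 2829 in THP-1 LDL, against 1845, 1719 and 1757 in THP-1 control, with no overlap and a log2 difference of 0.73 ± 0.069 (limma adjusted p = 9.63e-07). These 3 genes lie on chromosomes 1, 20 and 11.

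SNHG29, listed as LRRC75A-AS1 in GENCODE 29 and host of SNORD49A, SNORD49B and SNORD65, went the other way. It measured 897, 740 and 800.5 normalised counts in THP-1 LDL, against 1558, 1462 and 1338 in THP-1 control, so that every LDL library was below every control library. The log2 difference was -0.84 ± 0.083 (limma adjusted p = 1.58e-06). SNHG6, host of SNORD87, measured 154, 176 and 115 in THP-1 LDL, against 191, 218 and 177 in THP-1 control, and the highest LDL library lay just under the lowest control library. Its log2 difference of -0.41 ± 0.151 passed the test (limma adjusted p = 0.0304), but not without LDL replicate 3 (-0.24, adjusted p = 0.128), control replicate 1 (-0.42, adjusted p = 0.0687) or control replicate 2 (-0.33, adjusted p = 0.140), nor with no trend (adjusted p = 0.0878) or with all 12 libraries in one fit (adjusted p = 0.0838). SNHG5, host of SNORD50B, measured 408, 438 and 471 in THP-1 LDL, against 477, 472 and 394 in THP-1 control. Those groups overlapped, and the log2 difference was -0.025 with a 95% confidence interval of -0.23 to 0.18 (limma adjusted p = 0.826).

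Of the box H/ACA hosts, SNHG15, host of SNORA9, measured 410.4, 447 and 436 normalised counts in THP-1 LDL, against 156, 168 and 173 in THP-1 control. This was the widest separation among the 10 genes, with a log2 difference of 1.38 ± 0.0896 (limma adjusted p = 2.7e-08). SNHG7, host of SNORA17A and SNORA17B, measured 761, 628 and 696 in THP-1 LDL, against 541, 572 and 605 in THP-1 control. The groups did not overlap and the log2 difference was 0.28 ± 0.0837 (limma adjusted p = 0.0115), but scaling every library to the same total turned it to -0.066 (adjusted p = 0.491). It also missed the threshold under TMM (0.19) and quantile scaling (0.14), by edgeR (adjusted p = 0.0721) and DESeq2 (adjusted p = 0.0665), with no trend, with all 12 libraries in one fit and without control replicate 1, at adjusted p from 0.0567 to 0.144 over these. SNHG8, host of SNORA24, measured 532, 531 and 486 in THP-1 LDL, against 556, 561 and 484 in THP-1 control. It overlapped between the groups, at a log2 difference of -0.046 with an interval of -0.22 to 0.13 (limma adjusted p = 0.644). SNHG12, which hosts both kinds (SNORD99, SNORA61, SNORA44 and SNORA16A), measured 1208, 1079 and 1235 in THP-1 LDL, against 863, 815 and 904 in THP-1 control, without overlap. Its log2 difference was 0.45 ± 0.0731 (limma adjusted p = 0.000147), and it missed the threshold under library total scaling (0.10, adjusted p = 0.222) and with all 12 libraries in one fit (0.45, adjusted p = 0.118). Among the 6 box C/D hosts 3 were called higher and 2 lower, and among the 3 box H/ACA hosts 2 were called higher, where 35.5% of all genes tested were called higher and 29.0% lower.

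Genes with and without the pyrimidine run at the RefSeq start covered overlapping ranges in THP-1. ZFAS1 and SNHG12, with the pyrimidine run, had log2 differences of 0.73 and 0.45, and SNHG5, with the run CTTTT, had -0.025. Among the genes without it, GAS5 had 0.72, SNHG1 0.73, SNHG7 0.28, SNHG8 -0.046 and SNHG29 -0.84. At the commonest GENCODE 29 start the genes with such a run were others in part, namely GAS5 (6 pyrimidines, log2 difference 0.72), SNHG5 (5, at -0.025) and SNHG6 (7, at -0.41). Less common GENCODE 29 starts carried such a run too. They belonged to 6 of 30 transcripts of SNHG29, 4 of 17 of SNHG12 and 3 of 10 of ZFAS1. SNHG1 had 1 such transcript of 25, SNHG8 had 1 of 5, and SNHG7 and SNHG15 had 0. A gene without the run at the starts above can therefore still have an annotated start with it.

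**Figure D2:**
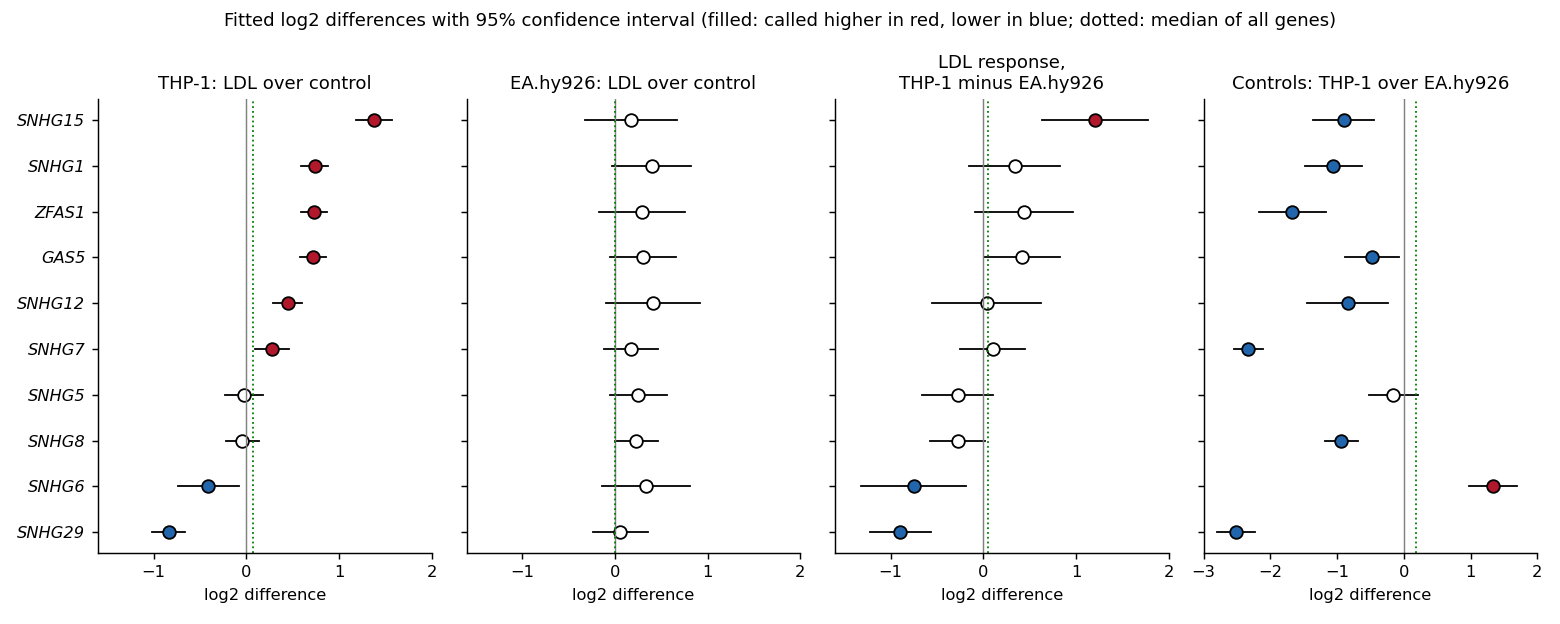
Fitted log2 difference (x axis) of each host gene with its 95% confidence interval, for LDL over control in THP-1 and in EA.hy926, for the difference of these responses and for THP-1 control over EA.hy926 control. Filled points passed an adjusted p of 0.05 (red higher, blue lower), and the dotted line is the median of all genes tested. SNHG15 at 1.38 and SNHG29 at -0.84 frame the THP-1 panel, and all 10 points of the EA.hy926 panel are open.

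The scale of the THP-1 comparison depended on how libraries were made comparable. The deposited totals differed between the THP-1 groups, and scaling each library to the same total moved the median of all genes to -0.26, against 0.08 with the deposited scaling. Calls over all genes were then 33.8% higher among those called, against 55.1% with the deposited scaling, and among the members 4 were called higher and 4 lower, the added ones being SNHG5 (-0.37) and SNHG8 (-0.39). Relative to the median of all genes, the members' median stood 0.28 higher under the deposited, total and TMM scalings and 0.27 higher under quantile normalisation. The deposited, total and TMM scalings each apply a factor for each library, which moves all genes nearly alike. This gap could therefore hardly change between them, and its likeness is no check on the scaling. GAS5, ZFAS1, SNHG1 and SNHG15 were called higher, and SNHG29 lower, under every alternative run, but the size of the difference moved with the scaling. Under library total scaling GAS5 had 0.37, ZFAS1 0.39, SNHG1 0.39, SNHG15 1.03 and SNHG29 -1.18. Under quantile normalisation GAS5 had 0.35, ZFAS1 0.55, SNHG1 0.41, SNHG15 1.34 and SNHG29 -1.06.

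RNA measures outside the host genes moved with LDL in THP-1 too. Mitochondrial mRNA made up 0.0383% to 0.0515% of reads in THP-1 LDL and 0.114% to 0.133% in THP-1 control. The nuclear RNA MALAT1 made up 3.15% to 3.35% in THP-1 LDL and 1.57% to 1.73% in THP-1 control, and markers of myeloid precursors summed to 792 to 931 normalised counts in THP-1 LDL and 1193 to 1291 in THP-1 control. Their part in the members' differences was not tested.

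Several members share their locus with a neighbour on the other strand, and without a stated strand setting the reads of overlapping genes cannot be told apart. ZNFX1 overlaps ZFAS1 by 249 exonic bases and had a log2 difference of 1.92 in THP-1 (limma adjusted p = 2.89e-11), a larger difference than that of ZFAS1. SLC3A2, the heavy chain of amino acid transporters, starts 188 bases from SNHG1 without overlapping it and had 2.25 (limma adjusted p = 2.79e-11). ZBTB37, which overlaps the body but no exon of GAS5, had 0.36 (limma adjusted p = 0.00119), a call lost under library total scaling (0.014). The other neighbours tested in THP-1 did not pass, with GAS5-AS1 at -0.078, MCMDC2 (overlapping SNHG6) at 0.61, DIPK1B (overlapping SNHG7) at 0.78, TRNAU1AP (overlapping SNHG12) at -0.065 and LRRC75A (overlapping SNHG29) at 0.058. ENSG00000266651, opposite SNHG29, fell under the filter.

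In EA.hy926, none of the 10 host genes was called after LDL by limma, edgeR or DESeq2, where limma called 2.01% of the 14202 genes tested (0.873% higher and 1.13% lower) and 1583 genes had an unadjusted p under 0.05, none of the 10 among them. All 10 fitted differences were above 0, as were 50.2% of all genes tested. They ran from 0.056 for SNHG29 to 0.41 for SNHG12, with a median of 0.27 beside 0.0013 over all genes tested. Most of the 10 moved together between libraries, as given below, so these are not 10 separate observations. The intervals were wide. For SNHG15, the interval ran from -0.32 to 0.67, and for GAS5 from -0.058 to 0.66.

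GAS5 measured 4754, 3902 and 3528 normalised counts in EA.hy926 LDL, against 2524, 3362 and 4119 in EA.hy926 control, with a log2 difference of 0.30 ± 0.165 (limma adjusted p = 0.533). SNHG1 measured 6324, 4632 and 3901 in EA.hy926 LDL, against 2742, 3941 and 4613 in EA.hy926 control, a log2 difference of 0.40 ± 0.196 (limma adjusted p = 0.479). SNHG15 measured 446, 392 and 244 in EA.hy926 LDL, against 234, 315 and 402 in EA.hy926 control, a log2 difference of 0.18 ± 0.227 (limma adjusted p = 0.809). In all 3 genes the groups overlapped, LDL replicate 1 was the highest LDL library and control replicate 1 the lowest control library.

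SNHG29, the most abundant of the 10, measured 8456, 7951 and 9515 in EA.hy926 LDL, against 9776, 7216 and 8069 in EA.hy926 control. SNHG6 measured 105, 113 and 77.3 in EA.hy926 LDL, against 68.4, 92.1 and 70.7 in EA.hy926 control. SNHG8 measured 1209, 1268 and 1117 in EA.hy926 LDL, against 899, 1097 and 1070.3 in EA.hy926 control. SNHG8 alone had groups that did not overlap, as did 16.4% of all genes tested, at a log2 difference of 0.23 with an interval of -0.0025 to 0.47 (limma adjusted p = 0.457). ZFAS1 ranged from 2033 to 3414 in EA.hy926 LDL and from 1503 to 2741 in EA.hy926 control, and SNHG12 from 1593 to 2655 in EA.hy926 LDL and from 1080.3 to 2292 in EA.hy926 control. SNHG7 ranged from 2791 to 3950.1 in EA.hy926 LDL and from 2546 to 3142 in EA.hy926 control, and SNHG5 from 543 to 657 in EA.hy926 LDL and from 399 to 568 in EA.hy926 control. These ranges overlapped in all 4 genes.

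The spread in EA.hy926 was shared by most of the host genes. LDL replicate 3 was the lowest of its group for 9 of the 10, at a median log2 deviation of -0.27 from the group's mean, and control replicate 1 was the lowest of its group for 9 of the 10, at -0.34. SNHG29 was the exception in both, being highest in those libraries. Genes outside the members could share this order or go against it. SESN2 measured 4227, 3558 and 3409 in EA.hy926 LDL, against 2369, 2902 and 3021 in EA.hy926 control. TPT1 ran the other way, at 6299, 6797 and 8399 in EA.hy926 LDL, against 9324, 7091 and 6230 in EA.hy926 control. The share of all genes lowest in these libraries was not counted. LDL replicate 3 and control replicate 1 had their groups' highest share of RN7SL1, the RNA component of the particle that targets secretory proteins. RN7SL1 made up 14.4% of reads in LDL replicate 3, against 9.52% and 10.2% in the other LDL libraries, and 12.7% in control replicate 1, against 8.90% and 10.5% in the other control libraries. Without both, an alternative chosen after seeing these values, none of the 10 was called and the differences lay from 0.10 for SNHG29 to 0.42 for SNHG6. The median coefficient of variation over the members was 18.6% in EA.hy926 LDL and 21.0% in EA.hy926 control, against 7.14% in THP-1 LDL and 5.45% in THP-1 control.

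**Figure D3:**
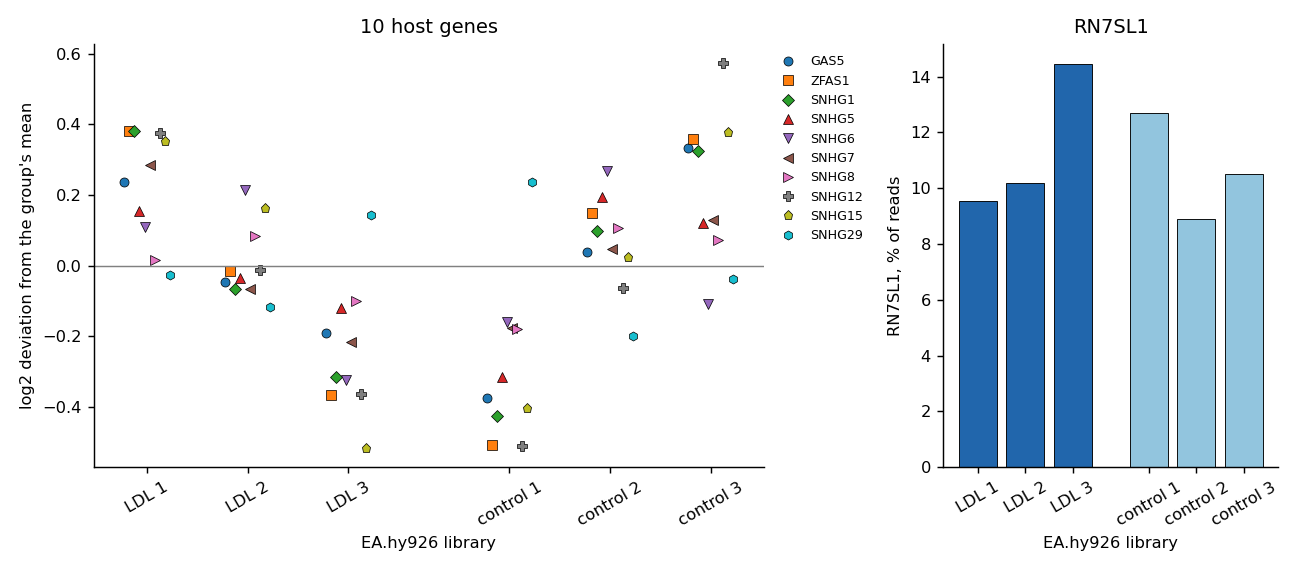
Left, log2 deviation of each host gene from the mean of its group (y axis) in each EA.hy926 library, with 1 symbol per gene. Right, RN7SL1 as a percentage of reads in the same libraries. LDL replicate 3 and control replicate 1 hold the lowest values of 9 genes and the tallest RN7SL1 bars of their groups, at 14.4% and 12.7%.

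The responses of the lines were then compared directly by an interaction fitted over all 12 libraries, as THP-1 minus EA.hy926. It was called for 3 of the 10, where 47.1% of the 12534 genes tested were called (25.2% higher and 21.9% lower). SNHG15 responded more in THP-1, by 1.20 ± 0.272 on the log2 scale (limma adjusted p = 0.00142). SNHG29 differed by -0.90 ± 0.157 (limma adjusted p = 0.00014) and SNHG6 by -0.75 ± 0.269 (limma adjusted p = 0.029), both with the lower response in THP-1. For SNHG6 the call was lost without THP-1 LDL replicate 3 (-0.58, adjusted p = 0.0884), THP-1 control replicate 2 (-0.67, adjusted p = 0.0822), EA.hy926 LDL replicate 1 (-0.70, adjusted p = 0.0559), EA.hy926 LDL replicate 2 (-0.64, adjusted p = 0.0767), EA.hy926 control replicate 1 (-0.67, adjusted p = 0.0573) or EA.hy926 control replicate 3 (-0.70, adjusted p = 0.0570).

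For the other 7 genes the difference was not called. GAS5 had 0.41, with an interval of 0.0057 to 0.82 (limma adjusted p = 0.0897), ZFAS1 had 0.43 with -0.092 to 0.96 (adjusted p = 0.166), and SNHG1 had 0.34 with -0.15 to 0.82 (adjusted p = 0.248). Without EA.hy926 LDL replicate 1 these 3 passed, at 0.53, 0.63 and 0.53, and likewise without EA.hy926 control replicate 1, at 0.60, 0.69 and 0.55. SNHG5 and SNHG8 each had -0.28, with intervals of -0.66 to 0.11 and -0.57 to 0.014. SNHG8 was called lower under TMM scaling (-0.35, adjusted p = 0.0454), by DESeq2 (adjusted p = 0.0495) and under library total scaling (-0.55), and SNHG5 under library total scaling (-0.54). SNHG7 had 0.10 with -0.25 to 0.45. SNHG12 had 0.035 with -0.55 to 0.62, and its sign turned under library total, TMM and quantile scaling. The intervals of these genes allow a difference in either direction, except that of GAS5.

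Without LDL, 9 of the 10 host genes differed between the control libraries of the lines, where 83.2% of the 16948 genes tested were called (45.7% higher and 37.5% lower in THP-1). The groups did not overlap in 9 of the 10, as in 84.7% of all genes tested. The members were mostly lower in THP-1 control, 8 of 10, with a median log2 difference of -0.92 beside 0.18 over all genes tested. This was not particular to them. Of 17 other non-coding host genes tested, 12 were called lower and 4 higher (median -1.31). Of 79 ribosomal proteins 71 were lower and 2 higher (median -1.09), and of 8 snoRNA particle core proteins 7 were lower and 0 higher (median -0.93). Library total scaling put the median of all genes at 0.32. Relative to it the members' median was -1.09, as with the deposited scaling, which a factor for each library could hardly change. SNHG29 averaged 1453 ± 110.2 normalised counts in THP-1 control and 8354 ± 1304 in EA.hy926 control (SD, n = 3 each), a log2 difference of -2.51 (limma adjusted p = 1.05e-06). SNHG7 averaged 573 ± 32.2 in THP-1 control and 2887 ± 307 in EA.hy926 control, a log2 difference of -2.33 (limma adjusted p = 3.93e-07). These were the widest gaps, and in both genes the control libraries of the lines did not overlap.

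ZFAS1 followed at -1.67, then SNHG1 at -1.05, SNHG8 at -0.93, SNHG15 at -0.90, SNHG12 at -0.84 and GAS5 at -0.48, with limma adjusted p-values from 0.000106 to 0.032. The call of GAS5 was lost under library total scaling (-0.33, adjusted p = 0.119), under quantile scaling (-0.40, adjusted p = 0.0512) and without any THP-1 control library or EA.hy926 control replicate 2 or 3 (adjusted p from 0.0619 to 0.109), and that of SNHG12 without any of the THP-1 control libraries (adjusted p from 0.0589 to 0.0710). SNHG6 alone was higher in THP-1 control, at 195 ± 21.1 normalised counts, against 77.1 ± 13.1 in EA.hy926 control, a log2 difference of 1.34 (limma adjusted p = 0.000117). SNHG5 averaged 448 ± 46.7 in THP-1 control and 502 ± 90.5 in EA.hy926 control, overlapping, with a log2 difference of -0.15 and an interval of -0.52 to 0.21 (limma adjusted p = 0.374). Without EA.hy926 control replicate 1 it was called lower (-0.31, adjusted p = 0.0316).

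In the GENCODE 29 annotation (GRCh38), GAS5 (ENSG00000234741) at chr1:173863900-173868882 (minus strand) and SNHG12 (ENSG00000197989) at chr1:28578538-28583132 (minus strand) share a chromosome. The other members lie apart, with ZFAS1 (ENSG00000177410) at chr20:49278178-49295738 (plus strand), SNHG1 (ENSG00000255717) at chr11:62851988-62855914 (minus strand), SNHG5 (ENSG00000203875) at chr6:85660950-85678748 (minus strand) and SNHG7 (ENSG00000233016) at chr9:136721366-136728184 (minus strand). Further members are SNHG8 (ENSG00000269893) at chr4:118278709-118279823 (plus strand), SNHG15 (ENSG00000232956) at chr7:44983023-44986961 (minus strand), SNHG29 (ENSG00000175061) at chr17:16438822-16478678 (plus strand) and SNHG6 (ENSG00000245910) at chr8:66921684-66926398 (minus strand). Levels can be ranked between genes only per length, here as normalised counts per kilobase of all annotated exons in GENCODE 29, which counts exons that a cell may not use. In THP-1 LDL the order was GAS5 (1061 per kilobase), SNHG1 (788), SNHG8 (559), ZFAS1 (496), SNHG12 (275), SNHG29 (216), SNHG7 (160), SNHG5 (156), SNHG6 (119) and SNHG15 (118). In THP-1 control it was GAS5 (645), SNHG8 (578), SNHG1 (472), SNHG29 (387), ZFAS1 (299), SNHG12 (202), SNHG5 (160), SNHG6 (157), SNHG7 (132) and SNHG15 (45.4). Neighbours overlapped for SNHG7 with SNHG5 and SNHG6 with SNHG15 in THP-1 LDL, and for SNHG5 with SNHG6 in THP-1 control.

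In EA.hy926 LDL, SNHG29 led at 2299 per kilobase, ahead of SNHG1 (1319), SNHG8 (1298), ZFAS1 (1195), GAS5 (1119), SNHG7 (755), SNHG12 (491), SNHG5 (211), SNHG15 (98.9) and SNHG6 (78.7). EA.hy926 control had SNHG29 (2222), SNHG8 (1107), SNHG1 (1002), ZFAS1 (983), GAS5 (918), SNHG7 (664), SNHG12 (379), SNHG5 (179), SNHG15 (86.9) and SNHG6 (61.8). Among SNHG1, SNHG8, ZFAS1 and GAS5 each gene overlapped with its neighbour in the order in both EA.hy926 groups, as did SNHG15 with SNHG6, and in EA.hy926 control GAS5 also overlapped with SNHG7. SNHG29 thus led both EA.hy926 groups and GAS5 both THP-1 groups, each above the next gene in every library.

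The snoRNAs themselves were mostly outside the measurement. GENCODE 29 annotates 26 snoRNA gene entries within 9 of the host genes, of which 22 lie inside an annotated exon of the host and 4 outside every exon. GAS5 is the host gene without an entry, and SNORD22, SNORA17B and SNORA16A are each entered more than once. The 2 entries with a value in the table, SNORD12C in ZFAS1 and SNORD99 in SNHG12, are both outside the exons. Mature snoRNAs are short, and a library of this kind may hold them poorly, so these values need not stand for the mature form. The sequences are shown because they are the only snoRNAs of the members with values here, taken from GENCODE 29 transcripts (GRCh38), with capitals marking the box C motif TGATGA, where present, and the last CTGA, the box D motif.
SNORD12C: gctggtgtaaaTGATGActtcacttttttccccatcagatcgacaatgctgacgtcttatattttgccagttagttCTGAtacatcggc
SNORD99: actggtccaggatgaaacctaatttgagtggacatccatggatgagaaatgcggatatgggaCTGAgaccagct
SNORD12C lies at chr20:49278940-49279028 on the plus strand and SNORD99 at chr1:28578749-28578822 on the minus strand.

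SNORD12C measured 153, 129 and 147 normalised counts in THP-1 LDL, against 120, 75.1 and 87.4 in THP-1 control. The groups did not overlap, and the log2 difference was 0.62 ± 0.168 (limma adjusted p = 0.0059), where its host ZFAS1 had 0.73. SNORD99 measured 52.0, 47.3 and 35.0 in THP-1 LDL, against 33.1, 26.1 and 25.4 in THP-1 control, without overlap, at a log2 difference of 0.64 ± 0.228 (limma adjusted p = 0.0259), where its host SNHG12 had 0.45. Both calls were lost under library total scaling (0.28 and 0.31), and that of SNORD99 also under quantile scaling (0.35). In EA.hy926 neither was called, at 0.27 with an interval of -0.27 to 0.82 for SNORD12C and 0.29 with -0.49 to 1.07 for SNORD99. SNORD12C stood at 12.8% of its host's value in THP-1 LDL and 14.0% in THP-1 control, 14.7% in EA.hy926 LDL and 15.0% in EA.hy926 control. SNORD99 stood at 3.84% of its host in THP-1 LDL and 3.28% in THP-1 control, 3.66% in EA.hy926 LDL and 3.88% in EA.hy926 control. The lowest SNORD99 library held 24 reads, which limits its precision.

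**Figure D4:**
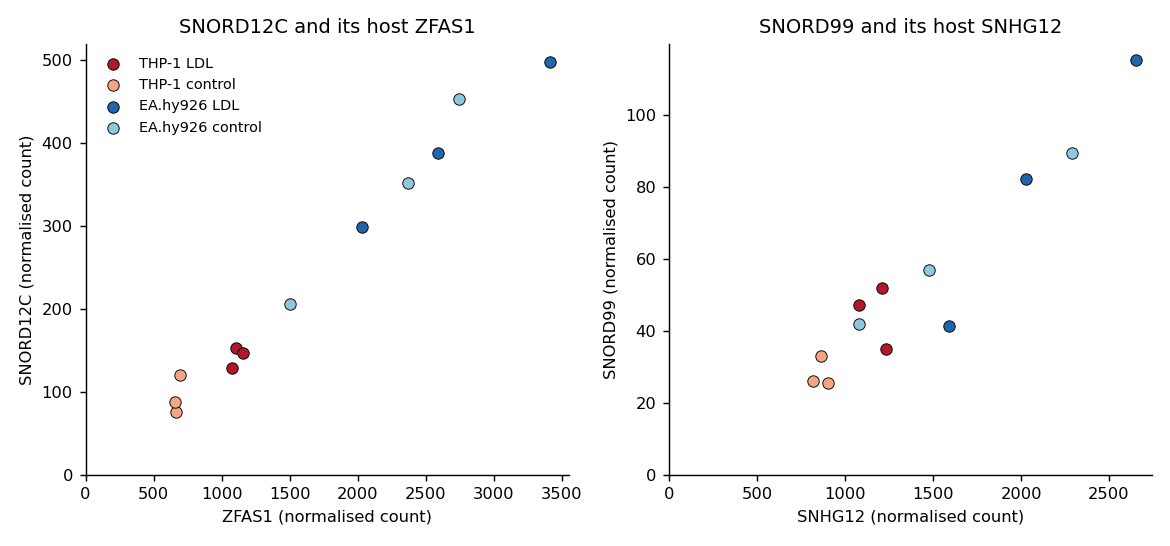
Normalised counts of SNORD12C against ZFAS1 and of SNORD99 against SNHG12 in each of the 12 libraries (points, coloured by group, both axes from 0). SNORD12C spans 75.1 to 498, with every EA.hy926 library above every THP-1 library in both SNORD12C and ZFAS1. Both values of a point come from 1 library, so no test was made.

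Other genes of the pathway were read from lists chosen with earlier results of these data known. The other scalings were run for the lists after the data were seen, and their counts are given where higher calls no longer outnumbered lower ones or a count moved by over 1.5 times in a list called in both directions. Counts in THP-1 with the deposited scaling stand against 35.5% of the 16167 genes tested called higher and 29.0% lower, or 5743 and 4682 genes. Counts under the other scalings stand against other numbers of these genes. They were 3736 higher and 7332 lower under library total scaling, 5181 and 5282 under TMM, and 4636 and 5728 under quantile normalisation. Of 16 other non-coding host genes tested in THP-1, 6 were called higher and 2 lower, with a median log2 difference of 0.14 (4 and 4 with a median of -0.20 under library total scaling). Among them SNHG3 had 1.05 ± 0.0717, SNHG17 0.83 ± 0.102, SNHG26 0.77 ± 0.132 and SNHG32 0.74 ± 0.105, and SNHG16 fell by 0.33 ± 0.0804 on the log2 scale (limma adjusted p from 4.51e-08 to 0.00287). Of 28 protein-coding host genes outside the ribosomal proteins, 8 were called higher and 12 lower, with a median of 0.013. Under library total scaling 4 were called higher and 19 lower with a median of -0.33, under TMM 5 and 13 with a median of -0.068, and under quantile normalisation 4 and 15 with a median of -0.46. The ubiquitin ligase gene RNF149 had 1.42, while the chaperone gene HSPA8 had -1.41, TPT1 -1.17 and the elongation factor gene EEF1B2 -1.75. Host genes of both kinds thus stood on either side. The lists share genes, so their counts are not separate observations. TPT1, EEF1B2, EEF2 and RACK1 are also in the list of translation genes with a TOP start below. NOP56 and DKC1 recur among the core proteins, and TAF1D among the genes for ribosomal RNA synthesis. SNHG9 and SNHG22 were listed at 0 in THP-1.

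Proteins that bind snoRNAs were called in both directions in THP-1. Of 8 core proteins of the snoRNA particles, 2 were called higher and 4 lower, with a median of -0.31, and under the 3 other scalings 4 to 6 were called lower. FBL, the methyltransferase of box C/D particles, fell by 1.41 ± 0.0845 on the log2 scale (limma adjusted p = 1.18e-08), NHP2 of box H/ACA particles fell by 0.92 ± 0.122, and SNU13 fell by 0.75 ± 0.103, while NOP58 and NOP56 had 0.25 and 0.21, calls lost under library total (-0.095 and -0.13), TMM and quantile scaling. Of 9 assembly factors, NAF1, which loads H/ACA particles, was called higher at 1.04 ± 0.0897 (limma adjusted p = 4.23e-07), and 5 were lower, among them RUVBL2 at -0.94, PIH1D1 at -0.44 and SHQ1 at -0.44.

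Of 17 nonsense-mediated decay factors, 5 were called higher and 4 lower, with a median of -0.032. Under library total scaling 3 were called higher and 12 lower with a median of -0.37, and under quantile normalisation 4 higher and 6 lower with a median of -0.12. DHX34 had 1.06 ± 0.095, SMG5 0.63 ± 0.0643, SMG1, the kinase of UPF1, 0.63 ± 0.0592, RBM8A of the exon junction complex -0.47 ± 0.104 and UPF2 -0.44 ± 0.111 (limma adjusted p from 6.17e-07 to 0.00364). These factors stood on both sides.

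Ribosomal protein genes, whose mRNAs carry the TOP tract, were mostly lower in THP-1 LDL under all 4 scalings (72 to 75 of 79 called lower). Of 79 cytosolic ribosomal protein genes, 72 were called lower and 3 higher (among them RPL17 at 0.77 and RPL36A at 0.52, named after their values were seen), with a median of -0.86. RPS23 had -1.57 and RPL7 -1.50. Of 18 other translation genes with a TOP start, 13 were called lower and 0 higher by limma, with a median of -0.56, among them EIF4B at -1.36 and PABPC1 at -0.89. In the mTORC1 list, the pathway that controls translation of TOP mRNAs, 5 of 15 were called higher and 3 lower, with a median of 0.12. There were 5 higher and 7 lower with a median of -0.22 under library total scaling, 5 and 5 under TMM, and 5 and 6 under quantile normalisation. Its inhibitors SESN2 and DDIT4 had 2.83 ± 0.0724 and 2.35 ± 0.0926 (limma adjusted p = 3.14e-12 and 2.04e-10), AKT1S1 had 2.17 and the translation repressor EIF4EBP2 had -1.33. Of 15 genes for ribosomal RNA synthesis, 6 were called higher and 4 lower, with a median of 0.19 (3 and 5 with a median of -0.15 under library total scaling). TAF1A had 0.98, TAF1D 0.84, MYC 0.46 (not called under library total scaling, 0.12), UBTF -1.23 and POLR1D -0.81.

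**Figure D5:**
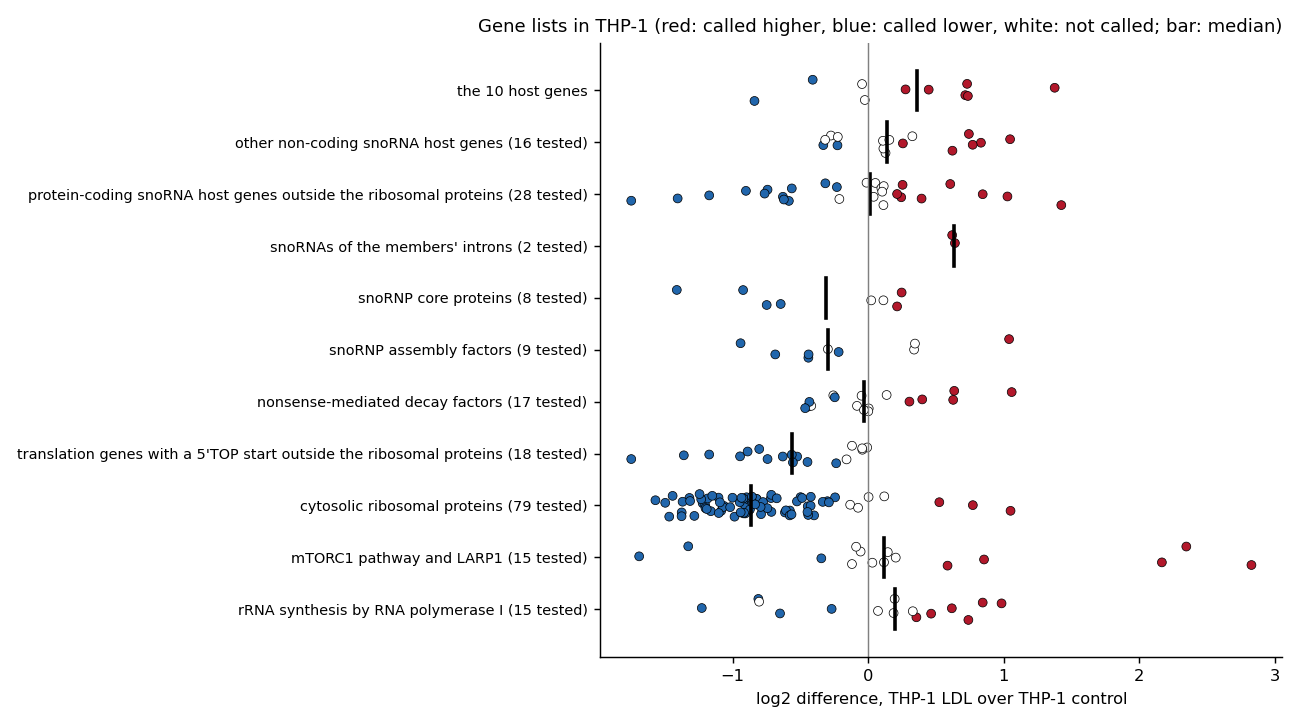
Log2 difference of THP-1 LDL over THP-1 control (x axis) for each tested gene of the 10 host genes and 10 other lists (rows), with red called higher, blue called lower, white not called and a bar at the median. The host genes have a median of 0.36 and the ribosomal proteins -0.86.

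In EA.hy926, none of these lists held a gene called by limma after LDL. Medians were 0.26 for the other non-coding host genes, 0.12 for the ribosomal proteins and 0.15 for the core proteins, beside 0.0013 over all genes. The LDL response differed between the lines for 3 of the 15 other non-coding host genes tested, where 47.1% of the 12534 genes tested were called. As THP-1 minus EA.hy926, the response was higher for SNHG17 (0.58) and SNHG32 (0.51) and lower for SNHG16 (-0.69). It was called for 69 of the 79 ribosomal proteins, with the lower response in THP-1 for 68 of them.

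Across the 12 libraries, the genes whose log2 levels ran closest to the members' mean pattern were BLCAP, B4GALT7, TBC1D20, TMEM184B and RHOB. Likeness was the root mean square distance between centred log2 values, which was 0.0882, 0.0961, 0.0978, 0.101 and 0.114 for these genes among 11453 candidates. BLCAP averaged 664 normalised counts in THP-1 LDL and 581 in THP-1 control, and 1257 in EA.hy926 LDL and 1132 in EA.hy926 control. The members themselves lay farther from their own mean, from 0.171 for SNHG8 to 1.12 for SNHG29. Over the 12 libraries together, the mean was thus near SNHG8, SNHG12 (0.181) and SNHG1 (0.188) and far from SNHG6 (1.00) and SNHG29. This nearness need not hold for the LDL response. SNHG8 had a log2 difference of -0.046 in THP-1, where the members' median was 0.36.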

How the data were processed

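Gene-level values of 12 libraries, in 4 groups of 3, were used as deposited. The deposited unit is a signal, read counts per gene that had been normalised by a factor for each library. Per the submitters' processing notes, FastQC, MultiQC, STAR, HTSeq and DESeq2 were used with the build GRCh38. The sources used here do not give versions, annotation, strand setting or filters. Dividing each library by its lowest value above 0 gave whole numbers in 100% of cases (tolerance 0.001), which were taken as reads.

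The members, gene lists and tests were chosen with earlier results of these data known. limma 3.58.1 (R 4.3.3) was fitted to log2(value + 1) with an intensity trend, two-sided, each line alone, over genes whose mean reached 10 in any fitted group. The difference between lines was an interaction over 12 libraries. Adjustment was by Benjamini and Hochberg over all genes tested, with a threshold of 0.05. On the recovered reads, edgeR 4.0.16 (quasi-likelihood) called 10610 genes in THP-1 and 294 in EA.hy926, where limma called 10425 and 285, and DESeq2 1.42.0 called 9321 and 336. The other alternatives were pseudocounts, filters, scalings, a fit with no trend, a replicate block, all libraries in one fit and each replicate left out. The fitting code was tested on simulated data.

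Named were all members and their neighbours, and of each list up to 4 genes with the smallest adjusted p in THP-1 and up to 2 in each other comparison. The 5 genes of like pattern had a mean of at least 50. SNHG17 in the difference between lines and 2 ribosomal protein genes called higher were added after their values were seen. Values of 2 genes, 1 of them a neighbour, are not reported here. Symbols were matched for 20104 of 20117 gene identifiers, and exons came from GENCODE 29. Python 3.11.15, pandas 2.3.3 and matplotlib 3.10.9 made tables and figures. Chi-square per degree of freedom between replicates was 1.85 to 18.5, so no library was treated as a duplicate.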

Additional observations from a re-analysis of the deposited data

Results flagged for a closer look

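The response of 3 host genes to LDL differed between the lines by the interaction test, where 47.1% of the 12534 genes tested were called. SNHG15 responded more in THP-1 than in EA.hy926, by 1.20 on the log2 scale (limma adjusted p = 0.00142), with 3 of 3 THP-1 LDL libraries above every THP-1 control library. SNHG29 responded in the opposite sense, by -0.90 (limma adjusted p = 0.00014), with 3 of 3 THP-1 LDL libraries below every THP-1 control library. SNHG6 had -0.75 (limma adjusted p = 0.029), and its call was lost without any of 6 single libraries (adjusted p from 0.0559 to 0.0884). Its 3 THP-1 LDL libraries lay below every THP-1 control library only just, with 176 normalised counts in the highest LDL library against 177 in the lowest control library. Such separation in THP-1 was found in 68.9% of the 16167 genes tested there, and it does not bear on the response in EA.hy926.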

How the results depend on the processing

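The number of host genes called lower in THP-1, 2 with the deposited scaling, was 4 under library total scaling and 1 with no trend or with all 12 libraries in one fit, and 1 to 2 with a replicate left out. Over the 16167 genes tested there, 4682 were called lower with the deposited scaling and 7332 under library total scaling. In the difference between lines, 2 called lower became 4 under library total scaling and 1 to 2 with a replicate left out, and 1 called higher became 1 to 4. Over the 12534 genes tested for this difference, 2747 were called lower with the deposited scaling and 4132 under library total scaling. The 285 genes called in EA.hy926 became 466 with no filter, 45 with a filter at a mean of 50 and 473 with all 12 libraries in one fit. Signs turned only for differences not called under that alternative. Under library total scaling these were SNHG7 in THP-1 (-0.066), SNHG29 in EA.hy926 (-0.017) and, in the difference between lines, SNHG7 (-0.17) and SNHG12 (-0.23), with SNHG12 also at -0.041 under TMM and -0.054 under quantile scaling. With a replicate left out, SNHG5 in THP-1 ranged from -0.11 to 0.026, SNHG15 in EA.hy926 from -0.026 to 0.43 and SNHG29 in EA.hy926 from -0.044 to 0.18. The difference between lines ranged from -0.0071 to 0.24 for SNHG7 and from -0.25 to 0.29 for SNHG12. The cause was not tested. Libraries with the same replicate number did not deviate together (correlations of -0.10, -0.077 and 0.047 in THP-1 and -0.36, 0.015 and -0.33 in EA.hy926). With 3 libraries per group this cannot show whether they were prepared together, and the main fit did not pair them. A fit with the replicate number as a block called 6 host genes higher and 2 lower in THP-1, and 231 genes in EA.hy926. Depth limits SNHG6 most, with 79 reads in its lowest THP-1 library and 59 in its lowest EA.hy926 library.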
